A study of Homo sapiens with 4 samples.

Results

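The genes described here are 10 genes of transforming growth factor β (TGF-β) signaling: the ligands TGFB1, TGFB2 and TGFB3, the receptors TGFBR1, TGFBR2 and TGFBR3, the latency protein LTBP1, and the targets and partners TGFBI, TGFB1I1 and KLF10. They were chosen by symbol and not by a rule on their values, although earlier results of these data were known. All 10 were found among the 17894 genes listed. TGF-β is secreted in a latent form that is held in the matrix by latent TGF-β binding proteins, and is released by integrins and proteases. The free ligand binds a type II receptor kinase, which phosphorylates a type I receptor, which in turn phosphorylates SMAD2 and SMAD3 so that they enter the nucleus with SMAD4. In differentiating pluripotent cells, signals of the wider TGF-β superfamily are known to take part in the formation of mesoderm.

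The RNA came from H1, a human embryonic stem cell line, grown in co-culture with mAGM-S3, a mouse stromal cell line that supports blood formation. At day 2 of hematopoietic differentiation the human cells were sorted as TRA-1-85+, an antigen of human cells. The experiment asked how R-spondin2, a secreted agonist of WNT signaling that binds LGR4 and related receptors, changes early differentiation. It comprised 4 libraries, namely 1 of wild-type control cells, 1 of wild-type cells given R-spondin2 at 20 ng/mL over the first 1 day, and 2 of cells of the genotype LGR4-/-. The labels number the LGR4-/- samples 1 and 2, and they are called clones 1 and 2 here, although the labels do not say how the lines were made or whether they are separate clones. Only the R-spondin2 sample is titled as treated, so that the LGR4-/- samples were taken as untreated. With 1 library for each, the control and the R-spondin2 condition have no replicate, and no spread between cultures can be given.

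Levels are given in FPKM, fragments scaled for transcript length and for the mapped total, which is a level per length and so allows genes to be compared. Differences are given as log2(FPKM+1) differences, in which the added 1 FPKM makes the change of low genes look smaller than it is. The mean over the 4 libraries reached 1 FPKM for 8 of the 10 genes, all but TGFB2 and TGFB3, and for 12697 genes in all, which are called the genes tested. Because no read counts were used, the reads behind each value were estimated from its FPKM, the length of the longest transcript and an estimated depth of 8680000 to 8910000 reads a library. The ratios of these implied reads are given with 95% counting intervals, which cover counting error only and not the spread between cultures.

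LGR4 itself had 21.8 FPKM in the control library, 24.3 with R-spondin2, 7.40 in clone 1 and 13.9 in clone 2. Its RNA was lower in both LGR4-/- libraries but still present, and clone 2 retained a ratio of 0.641 to the control (95% counting interval 0.580 to 0.708). The part of the gene that was altered is not given in the labels, so the RNA level checks the genotype only in part. All 6 pluripotency markers were above 1 FPKM in every library, with sums from 1082 to 2106 FPKM, and so were all 6 mesoderm markers, with sums from 351.2 to 1364 FPKM. The pluripotency sum was highest in clone 1 and lowest with R-spondin2, and the mesoderm sum ran in the opposite order. POU5F1 was the largest part of the pluripotency sum. TDGF1 departed from it, at 186.4 FPKM in the control library, 209.1 with R-spondin2, 218.6 in clone 1 and 237.3 in clone 2. NANOG was highest in clone 2. Each mesoderm marker had the order of the mesoderm sum, but T in clone 2, at 66.5 FPKM, was near the 70.3 FPKM of the control. The sum of 3 definitive endoderm markers had the order of the mesoderm sum and of TGFB1. It was 196.7 FPKM in the control library, 245.1 with R-spondin2, 75.0 in clone 1 and 100 in clone 2. GATA6 made up most of it in the wild-type libraries, at 140.6 and 186.8 FPKM, and SOX17 had the same order. FOXA2 ran in the reverse order, at 9.05 FPKM in the control library, 8.44 with R-spondin2, 11.9 in clone 1 and 11.6 in clone 2. Endothelial and blood markers summed to between 31.9 and 42.9 FPKM. Most of that was KDR, at 26.8 to 34.4 FPKM, which the study also counts among mesoderm genes. PECAM1 was at most 0.55 FPKM, CDH5 at most 0.05 FPKM and RUNX1, the highest of the others, at most 3.96 FPKM. Neuroectoderm markers summed to at most 0.47 FPKM. Of 8 markers of fibroblast-like stroma, 5 or 6 reached 1 FPKM in each library, and their sums ran from 219.2 FPKM in clone 1 to 313.9 FPKM with R-spondin2. Single markers of that list differed. DCN and POSTN were at or below 0.39 FPKM in every library, and COL1A1, COL1A2 and THY1 at or above 36.1 FPKM. LUM was at 5.49 FPKM in the control library, 9.11 with R-spondin2, 0.16 in clone 1 and 1.45 in clone 2. PDGFRA was at 17.1, 22.0, 5.62 and 8.09 FPKM in the same order. LUM, PDGFRA and COL1A2 were thus higher in both wild-type libraries than in both clones, as TGFB1 was. THY1 and POSTN were lower in both, with THY1 at 44.0 and 36.1 FPKM against 54.3 and 64.5 FPKM in the clones. COL1A1, COL3A1 and DCN did not separate the wild-type libraries from the clones. The part of these shifts in the values below was not tested. In sorted bulk cells, fewer cells that express a gene and less RNA for each cell cannot be told apart.

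Promoters are shown for TGFB1, TGFB1I1 and TGFBI, because the range of their log2(FPKM+1) over the 4 libraries was the widest of the 10 genes, at 1.27, 0.69 and 0.57. The sequences are the 250 bases before the RefSeq start in GRCh38.p14, matched by symbol, and lie at chr19:41353923-41354172 on the minus strand, chr16:31471902-31472151 on the plus strand and chr5:136028738-136028987 on the plus strand. For TGFB1I1 the first of 3 listed starts is shown. Capitals mark GGGCGG or its reverse complement CCGCCC, the GC box that Sp-family factors are known to bind.
TGFB1: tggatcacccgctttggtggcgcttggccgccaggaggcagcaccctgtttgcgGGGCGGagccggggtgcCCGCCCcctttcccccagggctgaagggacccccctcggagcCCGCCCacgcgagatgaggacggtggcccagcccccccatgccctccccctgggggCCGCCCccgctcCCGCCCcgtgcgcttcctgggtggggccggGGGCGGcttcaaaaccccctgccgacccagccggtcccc
TGFB1I1: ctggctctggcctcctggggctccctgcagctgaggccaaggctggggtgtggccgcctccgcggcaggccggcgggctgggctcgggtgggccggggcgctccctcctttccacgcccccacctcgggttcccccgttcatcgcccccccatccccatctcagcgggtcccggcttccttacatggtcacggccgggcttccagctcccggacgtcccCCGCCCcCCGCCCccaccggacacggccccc
TGFBI: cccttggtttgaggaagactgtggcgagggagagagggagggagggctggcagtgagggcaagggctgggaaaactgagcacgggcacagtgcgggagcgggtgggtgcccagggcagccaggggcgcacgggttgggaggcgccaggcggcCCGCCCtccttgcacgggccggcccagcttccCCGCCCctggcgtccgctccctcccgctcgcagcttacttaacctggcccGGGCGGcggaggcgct

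The GC box was present 6 times in the TGFB1 window, 2 times in that of TGFB1I1 and 3 times in that of TGFBI, with a GC content of 76.8%, 76.4% and 72.8%. Of the 35116 windows of this length in the table, 42.6% held at least 1 GC box on either strand, so that its presence is common. The letters CAGAC, the core of the SMAD-binding element, were absent from these 3 windows and present in 38.0% of all windows. Among the other genes, CAGAC was in every window of TGFB2 and LTBP1 and in some windows of TGFB3 and TGFBR1. It was in none of those of TGFBR2 and TGFBR3. CTTTGAT, a core of the TCF/LEF motif, was in none of the 22 windows found for 9 of the 10 genes, and in 2.26% of all windows. A match is a description of letters, not of binding.

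Ranked by level, TGFB1 was the most abundant of the 10 genes in every library and TGFB2 the least. In the control, clone 1 and clone 2 libraries the order was TGFB1, TGFBR1, KLF10, LTBP1, TGFB1I1, TGFBI, TGFBR2, TGFBR3, TGFB3 and TGFB2. With R-spondin2 the order differed only in that LTBP1 stood above KLF10. Over the 4 libraries the ranges of TGFB1 and TGFBR1 overlapped, as did those of KLF10 and LTBP1, of TGFBI and TGFBR2, of TGFBR2 and TGFBR3, and of TGFBR3 and TGFB3. TGFB1I1 and TGFBI met at 2.78 FPKM. TGFBR1 was clear of KLF10, LTBP1 was clear of TGFB1I1, and TGFB3 was clear of TGFB2.

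**Figure D1:**
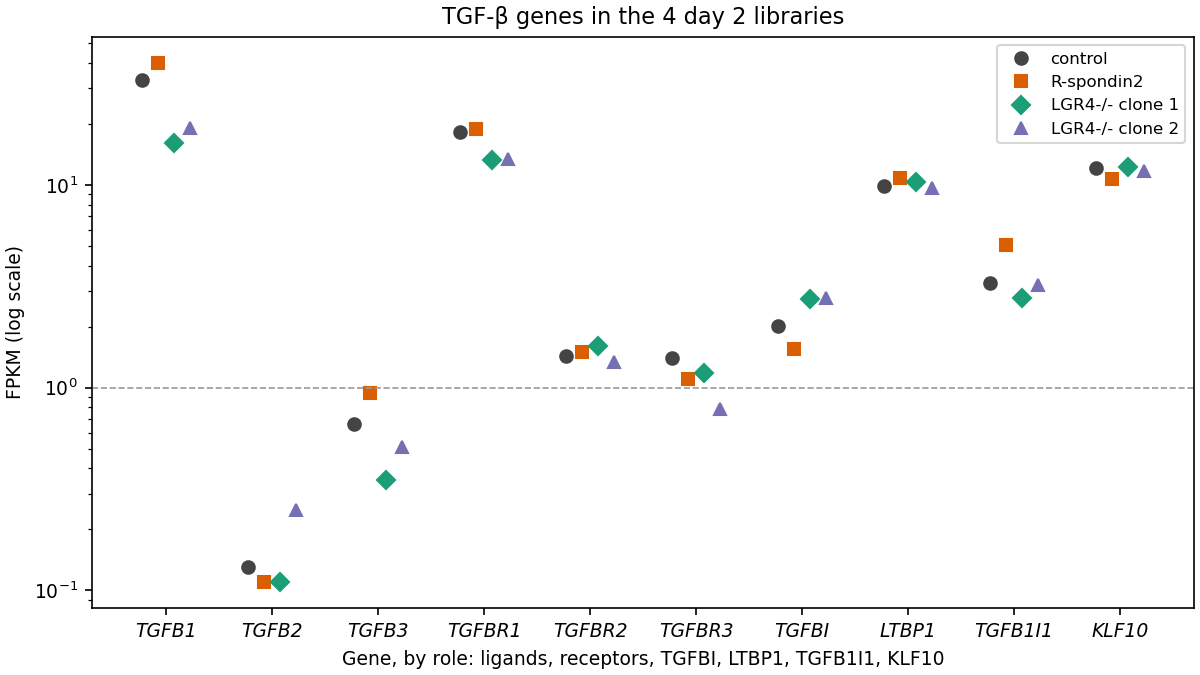
FPKM (vertical axis, log scale) of the 10 TGF-β genes in the control, R-spondin2, LGR4-/- clone 1 and LGR4-/- clone 2 libraries, 1 point for each library; the dashed line is 1 FPKM. TGFB1 lies at 32.9 and 40.1 FPKM in the wild-type libraries and at 16.0 and 19.1 FPKM in the clones, whereas LTBP1 and KLF10 stay close together in all 4.

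Among the ligands, TGFB1 (NCBI gene 7040; chromosome 19, 41301587 to 41353911, minus strand, in the GENCODE release 29 annotation of GRCh38, which is not the build of the deposited files) was the main one. It was at 32.9 FPKM in the control library, 40.1 with R-spondin2, 16.0 in clone 1 and 19.1 in clone 2. Both wild-type libraries were thus above both clones, and R-spondin2 was above the control. The TGFB1 value was higher than that of 86.5% of all genes listed in the control library and 89.2% with R-spondin2, against 73.7% in clone 1 and 77.1% in clone 2. With R-spondin2 the implied reads were 1.22 times those of the control (95% counting interval 1.11 to 1.34; 963 and 812 reads). In clone 1 the ratio to the control was 0.487 (interval 0.431 to 0.550; 395 reads) and in clone 2 it was 0.581 (interval 0.517 to 0.652; 465 reads). The clones differed as well, with a ratio of 1.19 for clone 2 to clone 1 (interval 1.04 to 1.37). TGFB1 shares 215 exonic bases with HNRNPUL1 on the opposite strand, and the library kit did not mark strand. HNRNPUL1 was nearly level, between 105.7 and 110.9 FPKM in the 4 libraries.

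TGFB2 (NCBI gene 7042; chromosome 1, 218346235 to 218444619, plus strand), a ligand that needs TGFBR3 for high-affinity binding, was at 0.13 FPKM in the control library, 0.11 with R-spondin2, 0.11 in clone 1 and 0.25 in clone 2. These levels correspond to 6, 5, 5 and 11 reads, and no difference between libraries was detectable at this depth. The interval of the log2 ratio of implied reads for clone 2 against the control ran from -0.67 to 2.62. TGFB3 (NCBI gene 7043; chromosome 14, 75958099 to 75982991, minus strand) was at 0.66 FPKM in the control library, 0.94 with R-spondin2, 0.35 in clone 1 and 0.51 in clone 2. It had the same order over the libraries as TGFB1 at a far lower level, with 16, 22, 8 and 12 reads, and its intervals also included a ratio of 1 in every comparison. TGFB2 shares 1371 exonic bases with TGFB2-OT1 and TGFB3 shares 163 with TGFB3-AS1, and reads of these transcripts cannot be told apart from theirs.

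Of the FPKM summed over the 3 ligands, TGFB1 made up 97.7% in the control library, 97.5% with R-spondin2, 97.2% in clone 1 and 96.2% in clone 2. The sum was 33.7 FPKM in the control library and 41.1 with R-spondin2, and 16.5 and 19.9 FPKM in clones 1 and 2. The summed ligand RNA therefore followed TGFB1.

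Among the receptors, TGFBR1 (NCBI gene 7046; chromosome 9, 99104038 to 99154192, plus strand), the type I receptor kinase, was at 18.2 FPKM in the control library, 18.9 with R-spondin2, 13.2 in clone 1 and 13.4 in clone 2. The wild-type libraries lay together, the clones lay together, and the 2 pairs did not overlap. The log2 ratio of implied reads against the control was -0.46 in clone 1 (95% counting interval -0.59 to -0.32; 1054 and 768 reads) and -0.44 in clone 2 (interval -0.58 to -0.30; 766 reads). With R-spondin2 it was 0.06 (interval -0.06 to 0.18), and between the clones 0.02 (interval -0.13 to 0.16).

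TGFBR2 (NCBI gene 7048; chromosome 3, 30606502 to 30694142, plus strand), the type II receptor kinase that binds the ligand first, was at 1.43 FPKM in the control library, 1.5 with R-spondin2, 1.6 in clone 1 and 1.33 in clone 2. Clone 1 was highest and clone 2 lowest, with both wild-type libraries between them. At 54 to 66 reads a library, no difference was detectable, and the intervals of the log2 ratio against the control ran from -0.48 to 0.61 with R-spondin2, from -0.37 to 0.70 in clone 1 and from -0.67 to 0.45 in clone 2. TGFBR3 (NCBI gene 7049; chromosome 1, 91680343 to 91906335, minus strand), the co-receptor betaglycan, was at 1.40 FPKM in the control library, 1.10 with R-spondin2, 1.18 in clone 1 and 0.78 in clone 2. The control was highest and clone 2 lowest, and the other libraries lay close together. Only clone 2 differed from the control by more than counting error, with a log2 ratio of -0.86 (interval -1.42 to -0.31; 81 and 44 reads). It also differed from clone 1, at -0.61 (interval -1.19 to -0.04). With the shortest of its transcripts, which implies 36 and 20 reads, the first interval ran from -1.69 to 0.0005 and the second from -1.50 to 0.24, so both differences depended on the transcript length.

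The level of TGFBR1 was 12.7 times that of TGFBR2 in the control library, 12.6 times with R-spondin2, 8.28 times in clone 1 and 10.1 times in clone 2. This ratio was lower in both clones than in both wild-type libraries. The level of TGFB1 was 1.81 times that of TGFBR1 in the control library and 2.12 times with R-spondin2, and 1.21 and 1.43 times in clones 1 and 2.

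LTBP1 (NCBI gene 4052; chromosome 2, 32946972 to 33399509, plus strand), which binds the latent ligand and anchors it in the matrix, was at 9.91 FPKM in the control library, 10.8 with R-spondin2, 10.3 in clone 1 and 9.64 in clone 2. It had the narrowest range of the 10 genes, 0.15 in log2(FPKM+1). The log2 ratio of implied reads was 0.13 with R-spondin2 (95% counting interval -0.04 to 0.30; 559 and 596 reads), 0.06 in clone 1 (interval -0.11 to 0.23) and -0.04 in clone 2 (interval -0.21 to 0.13). All 3 intervals included 0, and the widest bound was 0.30. Because LTBP1 was level, the ratio of TGFB1 to LTBP1 moved with TGFB1, and was 3.32 in the control library, 3.70 with R-spondin2, 1.55 in clone 1 and 1.99 in clone 2.

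TGFBI (NCBI gene 7045; chromosome 5, 136028895 to 136063818, plus strand), a secreted matrix protein named for its induction by TGF-β, was at 2.02 FPKM in the control library, 1.55 with R-spondin2, 2.73 in clone 1 and 2.78 in clone 2. It was lowest with R-spondin2 and highest in the clones, whereas TGFB1 was highest with R-spondin2 and lower in both clones than in the control. The clones were above both wild-type libraries, and were level with each other at 68 reads each. None of the differences from the control exceeded counting error, with a log2 ratio of implied reads of -0.36 with R-spondin2 (95% counting interval -1.01 to 0.28), 0.45 in clone 1 (interval -0.10 to 1.00) and 0.46 in clone 2 (interval -0.08 to 1.02).

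TGFB1I1 (NCBI gene 7041; chromosome 16, 31471585 to 31477960, plus strand) encodes Hic-5, a focal adhesion protein that also acts as a transcriptional coregulator. Its level was 3.27 FPKM in the control library, 5.08 with R-spondin2, 2.78 in clone 1 and 3.20 in clone 2. The R-spondin2 library stood above the other 3, which lay close together. The ratio of implied reads with R-spondin2 was 1.57 (95% counting interval 1.10 to 2.24; 55 and 84 reads), and with the shortest transcript the log2 ratio was 0.62 (interval 0.10 to 1.16). Against the control the log2 ratio was -0.23 in clone 1 (interval -0.82 to 0.36) and -0.03 in clone 2 (interval -0.60 to 0.54). TGFB1I1 shares 118 exonic bases with AC026471.6 on the opposite strand, and LTBP1 shares 249 with AC019127.1.

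KLF10 (NCBI gene 7071), a zinc-finger transcription factor induced early by TGF-β, was at 12.2 FPKM in the control library, 10.7 with R-spondin2, 12.3 in clone 1 and 11.7 in clone 2. The R-spondin2 library was lowest and the other 3 were nearly level. The log2 ratio of implied reads was -0.18 with R-spondin2 (95% counting interval -0.39 to 0.03; 397 and 341 reads), 0.01 in clone 1 (interval -0.19 to 0.22) and -0.06 in clone 2 (interval -0.26 to 0.15).

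Counting intervals excluded equal levels for 2 of the 10 genes with R-spondin2 (TGFB1 and TGFB1I1), for 2 in clone 1 (TGFB1 and TGFBR1), for 3 in clone 2 (TGFB1, TGFBR1 and TGFBR3) and for 2 between the clones (TGFB1 and TGFBR3). Over the genes tested with a known length and enough reads, the same held for 24.0% with R-spondin2, 44.2% in clone 1, 35.5% in clone 2 and 25.0% between the clones. Those genes exclude TGFB2 and TGFB3, and over the 8 genes tested the shares were 25% with R-spondin2, 25% in clone 1, 37.5% in clone 2 and 25% between the clones, which is at or near the background in 3 comparisons and under it in clone 1.

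**Figure D2:**
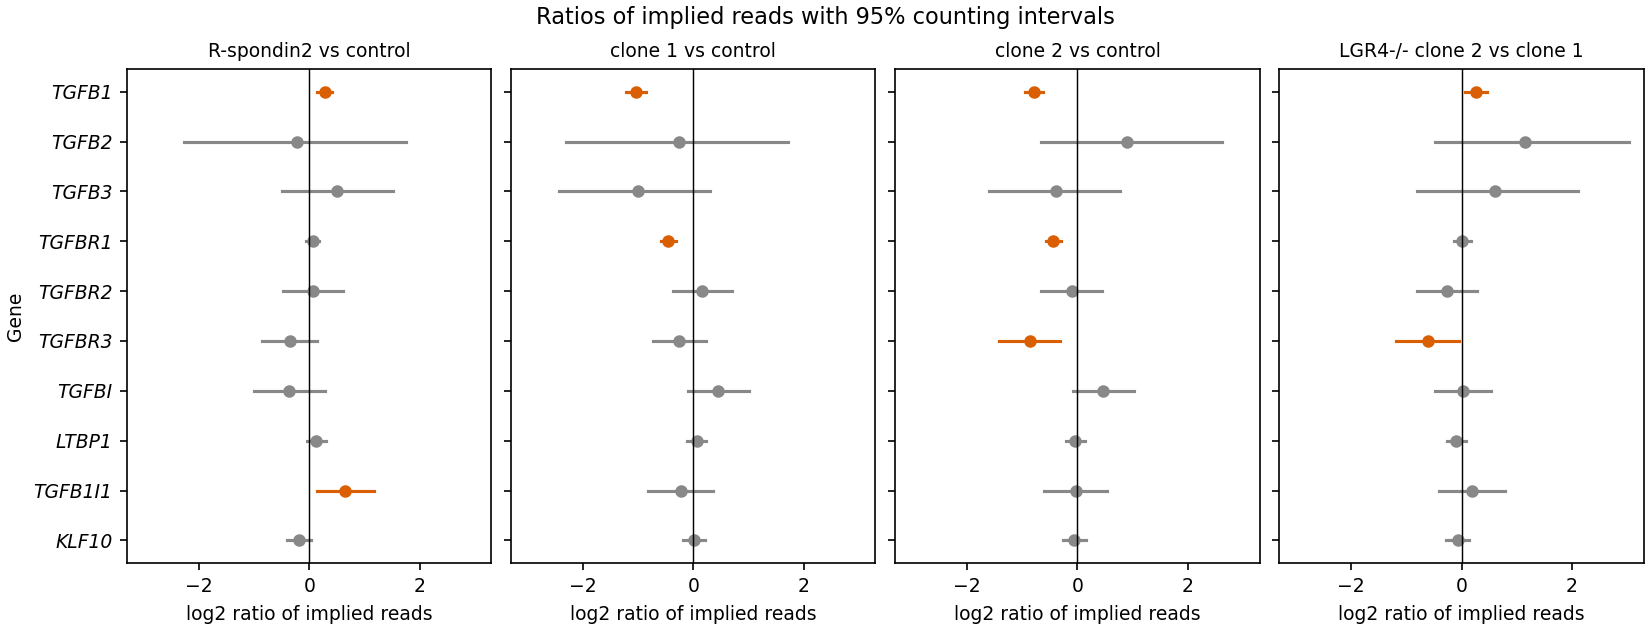
The log2 ratio of implied reads (horizontal axis) for each of the 10 TGF-β genes in 4 pairs of libraries, with 95% counting intervals as bars; orange marks intervals without 0. TGFB1 is orange in all 4 panels and TGFBR1 in both comparisons of a clone with the control, while the intervals of TGFB2 and TGFB3 are the widest.

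For R-spondin2 against the control, 6 of the 10 genes were higher and 4 lower. The largest log2(FPKM+1) differences were 0.51 for TGFB1I1 and 0.28 for TGFB1 among the higher genes, and -0.24 for TGFBI, -0.19 for TGFBR3 and -0.17 for KLF10 among the lower ones. None of the 8 genes tested reached 2-fold, as against 0.221% of all genes tested, and none reached 1.5-fold, as against 2.00%. The second count rests on the added 1 FPKM, since with 0.1 FPKM added TGFB1I1 was at 0.62 and past 1.5-fold, 1 of 8 beside 4.77% of all genes tested. The difference of TGFB1I1 was above that of 99.1% of the genes tested and that of TGFB1 above 93.9%. The median of the 8 genes was 0.05, beside -0.008 over all genes tested, whose differences had an SD of 0.21. TGFB1, TGFBR1, TGFB1I1 and KLF10 are among the genes that the study displayed as altered in these same libraries, so that their direction is not independent evidence.

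Against the control, the mean of the LGR4-/- clones was higher for 4 of the 10 genes and lower for 6. This comparison and that of R-spondin2 share the 1 control library. TGFB1 had the largest log2(FPKM+1) difference at -0.87, made up of -0.99 in clone 1 and -0.75 in clone 2. TGFBR1 followed with -0.42, and TGFBI had the largest positive difference, 0.31. None of the 8 genes tested reached 2-fold, beside 2.25% of all genes tested, and 1 of 8, TGFB1, reached 1.5-fold, beside 8.50%. Only 271 of the 12697 genes tested, 2.13%, lay below TGFB1, whereas 6.76% lay below TGFBR1 and 86.8% below TGFBI. The median of the 8 genes was -0.06, beside 0.02 over all genes, with an SD of 0.35 over genes.

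Both clones lay below both wild-type libraries for TGFB1, TGFBR1 and TGFB1I1, which is 3 of 8, beside 27.6% of all genes tested, and for TGFB3 among the genes left out as low. Both lay above them for TGFBI alone, 1 of 8, beside 34.4% of all genes tested. For TGFB1I1, TGFB3 and TGFBI the counting intervals of both clones against the control included equal levels. For TGFB1I1 the order rested on 3.20 FPKM in clone 2 against 3.27 FPKM in the control library. With limma, in which the spread comes from the 2 clones and leaves 1 residual degree of freedom, 0 of 8 genes passed an adjusted p of 0.05, beside 0.00% of all genes tested. The limma adjusted p was 0.161 for TGFB1, 0.186 for TGFBR1 and 0.262 for TGFBI, and between 0.470 and 0.978 for the other 5. Before adjustment, limma gave a p below 0.05 for these 3 of the 8 genes and for 2262 of the 12697. In simulated libraries of the same design, 200 of the 12697 genes were raised and the noise came from the fitted spread. At 2-fold limma found 0 of the 200, and at 4-fold 186 of 200, with 13 unchanged genes also called. How many genes changed in the real libraries is not known, so the simulation does not fix which differences limma could find there. The p measures only the spread between these samples.

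Clone 2 was above clone 1 for 6 of the 10 genes and below it for 4. The log2(FPKM+1) difference was 0.24 for TGFB1 and 0.15 for TGFB1I1, the largest positive values among the 8 genes tested, and -0.29 for TGFBR3 and -0.16 for TGFBR2. None of the 8 reached 2-fold, beside 0.252% of all genes tested, or 1.5-fold, beside 2.41%. The difference of TGFB1 between the clones, 0.24, was close in size to that between R-spondin2 and the control, 0.28. No such pair of libraries was available for wild-type cells under 1 condition.

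**Figure D3:**
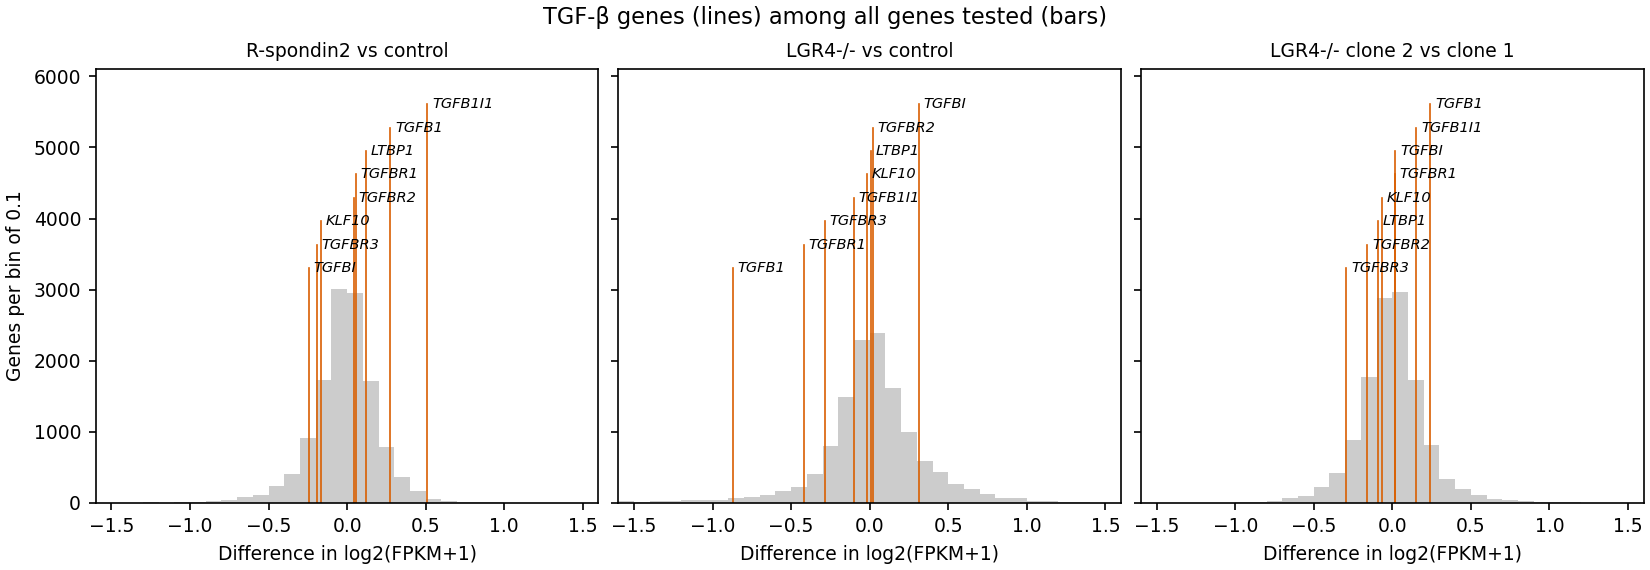
Gray bars count all 12697 genes tested by their log2(FPKM+1) difference (horizontal axis) in the 3 comparisons, and orange lines mark the 8 TGF-β genes tested; line height only separates the labels, and genes beyond the ends of the axis are not drawn. TGFB1I1 lies in the upper tail with R-spondin2 at 0.51 and TGFB1 in the lower tail of the LGR4-/- comparison at -0.87, while the lines in the panel of clone 2 against clone 1 lie between -0.29 and 0.24.

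The 10 genes were then placed among 89 genes of TGF-β signaling, listed by role from textbook knowledge and including the 10, of which 75 were tested. With R-spondin2, 53 of the 75 were higher and 22 lower, with a median log2(FPKM+1) difference of 0.08, whereas 6066 of all genes tested were higher and 6585 lower. None reached 2-fold, beside 0.221% of all genes, and 3 (4%) reached 1.5-fold, beside 2.00%. These were the targets COL3A1, a fibrillar collagen (4.65 FPKM in the control library and 9.86 with R-spondin2), BHLHE40, a transcriptional repressor (10.9 and 17.8 FPKM), and TIMP3, an inhibitor of metalloproteinases (5.13 and 8.24 FPKM). The largest negative differences were -0.52 for the cytokine IL11 (2.68 and 1.57 FPKM), -0.24 for TGFBI and -0.24 for SKIL, a SMAD corepressor (14.9 and 12.5 FPKM). COL3A1 is also 1 of the stromal markers above.

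By role, 14 of 15 genes of latency and activation were higher with R-spondin2, with a median of 0.18 and differences up to 0.48 for PLAU, which encodes urokinase. Among 26 targets, 19 were higher and 7 lower, with a median of 0.21. The 5 receptors, which add ACVRL1 and ENG, split 3 to 2 and ran from -0.19 for TGFBR3 to 0.29 for ACVRL1. The 7 SMAD genes and partners had a median of 0.002 and ran from -0.10 for SMAD4 to 0.13 for SMAD3. Of 15 inhibitors 10 were higher and 5 lower, and of 6 genes of the SMAD-independent branch 2 were higher and 4 lower. Shifts of similar size were present between the LGR4-/- libraries. There 18 of the 26 targets were higher in clone 2 and 8 lower, with a median of 0.17. Of the 15 genes of latency and activation 10 were higher in clone 2 and 5 lower, with a median of 0.20. The counts by role are therefore a description only.

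Against the control, the LGR4-/- mean was higher for 32 of the 75 genes and lower for 43, with a median of -0.10, whereas 6803 of all genes tested were higher and 5894 lower. At least a 2-fold difference was present in 5 (6.67%), beside 2.25% of all genes. FMOD, a proteoglycan of the matrix that binds TGF-β, had 9.98 FPKM in the control library and 10.5 with R-spondin2, against 1.39 and 2.82 in the clones (-1.86). FBN2, a fibrillin of the microfibrils, was at 93.1 and 120.2 FPKM in the wild-type libraries and at 21.9 and 34.0 FPKM in the clones (-1.73). SNAI2, a repressor known from epithelial-mesenchymal transition, was at 9.57 and 9.78 FPKM against 1.48 and 3.27 FPKM (-1.70).

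BAMBI, a pseudoreceptor that dampens signaling, was at 76.3 and 92.5 FPKM in the wild-type libraries against 26.3 and 35.6 FPKM in the clones (-1.29). PARD6A, a polarity protein that TGFBR2 phosphorylates, was the only gene of the list at least 2-fold higher, at 0.89 and 0.91 FPKM against 3.37 and 3.61 FPKM (1.25). PARD6A was below 1 FPKM in both wild-type libraries and was among the genes tested only through its values in the clones. In each of these 5 genes both clones lay on the same side of both wild-type libraries. Their side of the control was largely set by the choice of genes at 2-fold from it, so this is a description only. The next largest positive differences were 0.63 for NRROS, which binds latent TGF-β, and 0.57 for the matricellular gene CYR61. NRROS was at 0.61 and 0.76 FPKM in the wild-type libraries against 1.69 and 1.32 FPKM in the clones. Like PARD6A, it was among the genes tested only through the clones. Without clone 2, 11 genes of the list rather than 5 differed at least 2-fold from the control. The share over all genes was not computed for clone 1 alone. Its differences were wider over all genes tested as well, with an SD of 0.41 against 0.35 for the mean of the clones.

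At 1.5-fold the list held 2 higher and 14 lower genes (21.3%, beside 8.50% of all genes). The 2 higher were PARD6A and NRROS. Among the lower were TGFB1, the receptor ACVRL1 (2.05 and 2.73 FPKM in the wild-type libraries against 0.42 and 0.89 FPKM in the clones) and the proteases MMP14 and PLAU. SMAD3 was below this threshold at -0.55, from 7.19 FPKM in the control library to 4.22 and 5 FPKM in the clones. The limma test found 0 of the 75 genes at an adjusted p of 0.05. Both clones lay below both wild-type libraries for 31 of the 75 (41.3%, beside 27.6%) and above them for 17 (22.7%, beside 34.4%). These counts describe the list as written and were not tested against other lists.

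**Figure D4:**
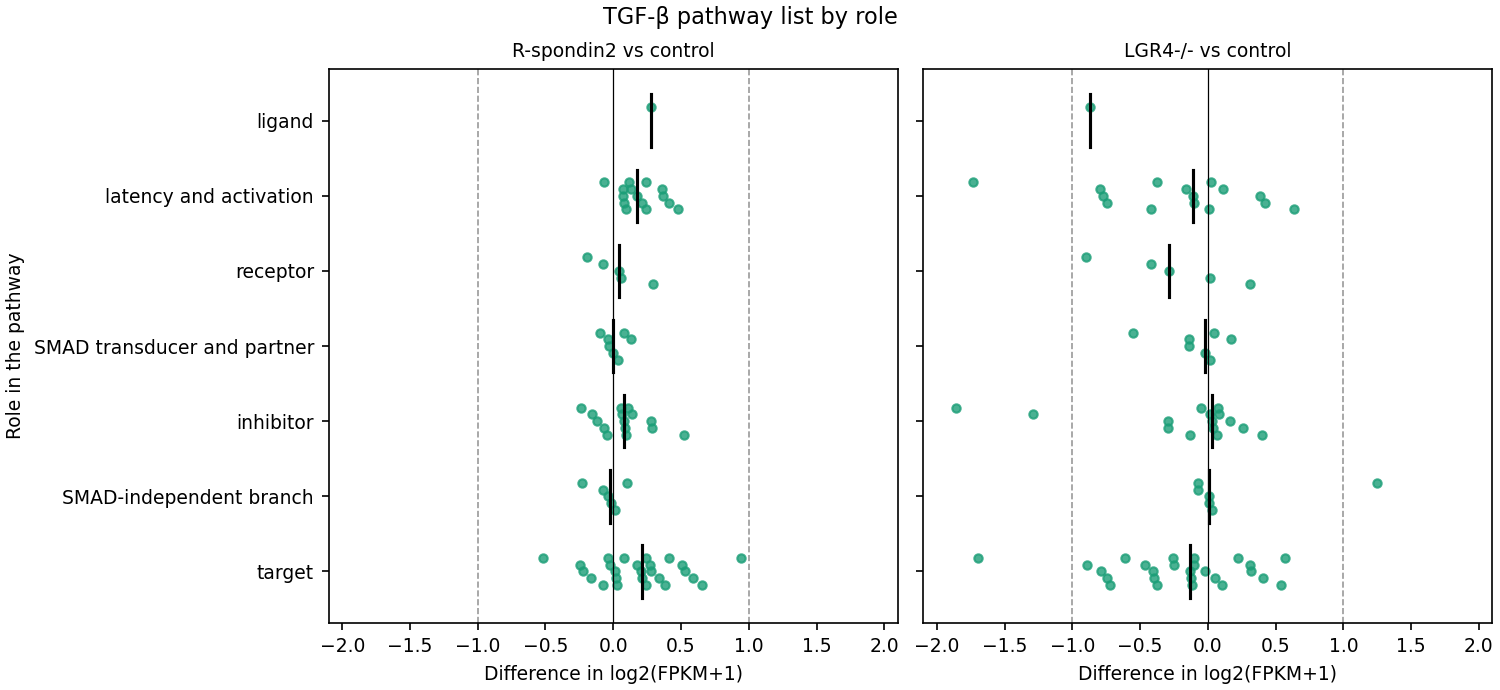
Log2(FPKM+1) differences (horizontal axis) of the 75 genes tested from the TGF-β pathway list, by role (vertical axis); each point is a gene, black bars are medians and dashed lines mark 2-fold. With R-spondin2 no point passes a dashed line, and in the LGR4-/- comparison FMOD, FBN2, SNAI2 and BAMBI lie beyond the lower line and PARD6A beyond the upper one.

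Clone 2 was above clone 1 for 48 of the 75 genes and below it for 27, whereas 6243 of all genes tested were higher and 6400 lower. None of the 75 reached 2-fold, beside 0.252% of all genes. At 1.5-fold there were 6 (8%, beside 2.41% of all genes), all higher in clone 2. BHLHE40 had 4.43 FPKM in clone 1 against 8.65 in clone 2 (0.83), SNAI2 at 1.48 and 3.27 FPKM (0.78) and the stress-response gene GADD45B at 14.6 and 25.0 FPKM (0.73). The largest negative differences were -0.45 for LTBP4, at 18.4 and 13.2 FPKM, -0.29 for TGFBR3 and -0.26 for TGIF2, a SMAD corepressor, at 23.6 and 19.6 FPKM.

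In the deposited annotation, 61 of the 17894 genes carried the process term for TGF-β receptor signaling, and 3 of the 10 genes, TGFB1, TGFB3 and TGFB1I1, were among them. The receptors themselves did not carry it.

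The genes with the pattern nearest to TGFB1, TGFB1I1 and TGFBI were sought among the 9029 genes whose mean reached 5 FPKM, by the Euclidean distance between log2(FPKM+1) values over the 4 libraries after each gene's own mean was subtracted. For TGFB1 they were LRIG3, a leucine-rich repeat membrane protein (distance 0.0546), ZNF703 (0.0628) and MMP14, a membrane-bound metalloproteinase (0.0703). LRIG3 was at 25.3 FPKM in the control library, 30.3 with R-spondin2, 11.9 in clone 1 and 15.0 in clone 2, and MMP14 at 98.5, 126.7, 51.4 and 61.7 FPKM in the same order. For TGFB1I1 they were SYDE1 (0.0524), P4HA1, a subunit of the collagen prolyl hydroxylase (0.0828), and HOMEZ (0.0923). SYDE1 was at 7.06, 10.4, 6.25 and 7.26 FPKM. For TGFBI they were TMX1 (0.0214), ZIK1 (0.0278) and NLN, which encodes neurolysin (0.0414). TMX1 was at 18.4, 15.1, 22.6 and 22.8 FPKM. With 4 values a gene and 9029 candidates, these are a description only.

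**Figure D5:**
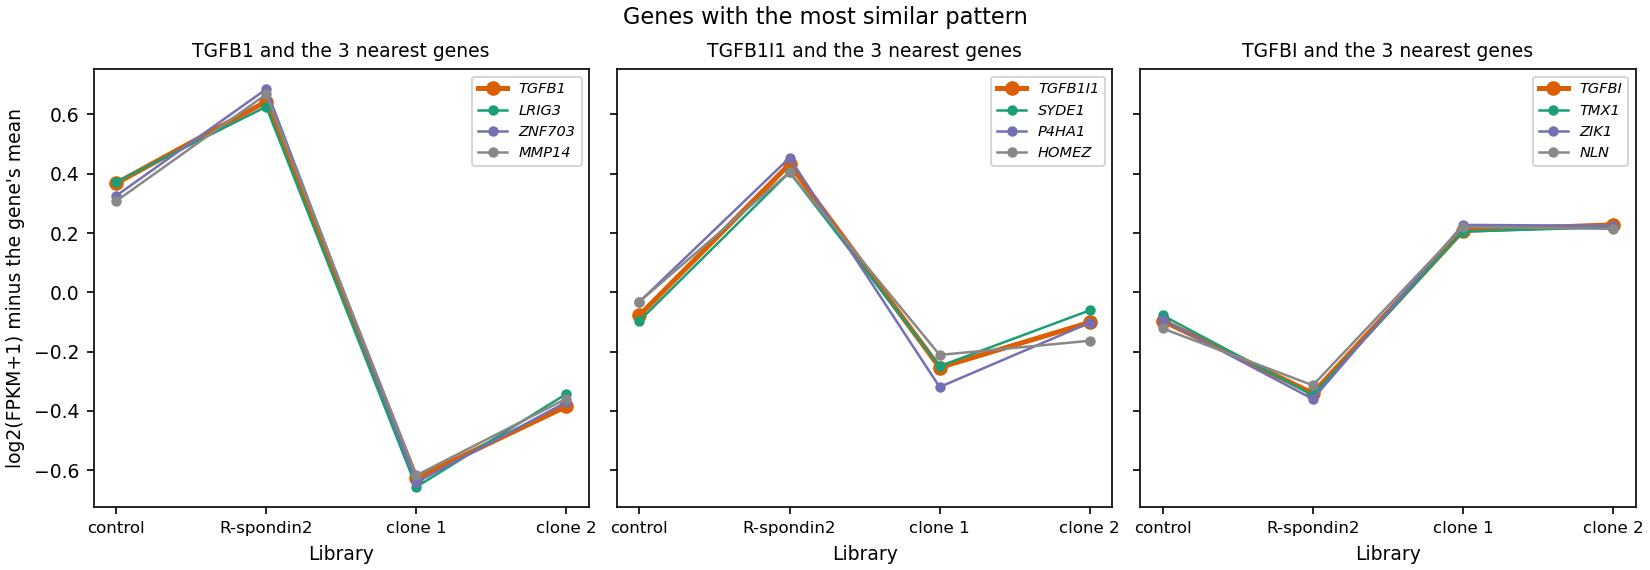
Log2(FPKM+1) minus each gene's mean (vertical axis) in the 4 libraries (horizontal axis) for TGFB1, TGFB1I1 and TGFBI (orange) and the 3 genes nearest to each; lines only join the points of a gene. TGFB1 and its neighbors are high in both wild-type libraries, TGFB1I1 and its neighbors peak with R-spondin2, and TGFBI and its neighbors are lowest with R-spondin2 and highest in the clones.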

How the data were processed

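RNA-SEQ was performed on TRA-1-85+ H1 cells of day 2, in 4 libraries. RNA was harvested with Trizol, and libraries were made from total RNA with an unstranded Illumina TruSeq kit and read on a GAIIx. The authors deposited FPKM to 2 decimals for 17894 genes, scaled for transcript length and depth. The submitters' processing notes name BWA, Bowtie, RSEM and the build hg19, with no roles or versions, and filters are not given in the sources used here. The deposited annotation columns other than the process terms were not used.

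FPKM were compared as log2(FPKM+1) over the 12697 genes whose mean reached 1 FPKM. The LGR4-/- value is the mean of the clones. No p-value was computed for 1 library against 1. A limma fit of the clones against the control was an alternative, with Benjamini-Hochberg adjustment over all genes tested, and was tested on simulated data with 200 changed genes. To estimate depth, low values (below 0.6 FPKM, transcripts under 1500 bases) among 8068 genes with a single RefSeq transcript were fitted to whole reads. Of these values 76.3 to 77.7% lay within 0.2 of a whole read, where evenly spread values would give 40%. Values from 16252 to 16403 genes a library were above 0. Ratios of implied reads carry exact conditional binomial intervals, given where both libraries together held at least 10 reads. Lengths were the longest listed transcript in GENCODE release 29. The accession of TGFB3 had no match there, and the longest transcript of the gene, 2708 bases, was used.

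The members and lists were chosen with earlier results of these data known. The genes named were the 10 members, LGR4, the 3 largest rises and falls and every gene at 2-fold from the pathway list in each comparison, and the 3 nearest patterns of the 3 widest-ranging members. HNRNPUL1, ACVRL1, ENG, PLAU, MMP14, SMAD3, SMAD4 and the marker genes singled out were named after their values were seen. The alternatives were a pseudocount of 0.1, no filter or at least 5 FPKM, median-ratio rescaling, 1.5-fold, both wild-type libraries as the reference, each clone left out, the shortest transcript, limma and, chosen after seeing the data, the counts of genes outside the range of both wild-type libraries, 1.5-fold with the pseudocount of 0.1, and the TGFB3 length. Promoters were from RefSeq on GRCh38.p14. Tools were R 4.3.3, limma 3.58.1, Python 3.11.15, pandas 2.3.3, numpy 2.4.6, matplotlib 3.10.9 and scipy 1.17.1.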

Additional observations from a re-analysis of the deposited data

How the results depend on the processing

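Of 114 values of single genes under an alternative, 113 stayed on their side of the 2-fold threshold. The exception was TGFB1 at -1.01 in the clones against the mean of both wild-type libraries. The 114 include the values with no filter and with at least 5 FPKM. Those could only repeat the main value, since a filter does not alter the difference of a single gene. Of the 114, 7 changed sign, all in the LGR4-/- comparison of KLF10, LTBP1 and TGFBR2, with values from -0.0606 to 0.0639. With a pseudocount of 0.1, 1 pathway gene reached 2-fold with R-spondin2 and 1 between the clones, instead of 0. The share of all genes at 2-fold was not computed with that pseudocount. The LGR4-/- median of the members was then -0.0748 instead of -0.0597. At 1.5-fold the counts were 3 with R-spondin2, 16 in the LGR4-/- comparison and 6 between the clones for the pathway list, and 1 for the members in the LGR4-/- comparison. At 1.5-fold with a pseudocount of 0.1, chosen after seeing the data, 1 member, TGFB1I1, was past the threshold with R-spondin2. Both wild-type libraries, 1 of them given R-spondin2, were also taken as the reference. Then 1 member, TGFB1, and 9 pathway genes reached 2-fold in the clones, with no share over all genes computed beside them. The members' median in the LGR4-/- comparison was then -0.1192. That median was -0.2201 over genes of at least 5 FPKM and -0.0763 after median-ratio rescaling, for which the factors ran from 0.989 to 1.012. With limma the pathway count was 0 instead of 5. Leaving out 1 clone, the pathway count ran from 5 to 11, with no share over all genes computed beside it, and the pathway median from -0.1142 to -0.0513. The limma fit without a clone was not run, since no residual degree of freedom is left. The shortest transcripts moved the reads implied in the control library for TGFBR1 to 926, for TGFBR3 to 36, for LTBP1 to 449, for KLF10 to 336 and for TGFB3 to 8. Depth limits TGFB2 and TGFB3 most, at 5 to 22 reads, and also TGFBI, TGFBR2, TGFBR3 and TGFB1I1, at 38 to 84 reads. No paired analysis was possible because the groups share fewer than 2 replicate numbers.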
